A study of Mus musculus with 12 samples.

Results

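TRAV14 is a family of variable (V) gene segments of the T-cell receptor α chain (TCRα), and the clonotypes that use it in newly developed regulatory T lymphocytes (Treg) of the mouse thymus are described here. Members were all in-frame rearrangements to which a TRAV14 name was assigned in the deposited clonotype tables, so they were chosen by the measured V assignment and reading frame, and the genotype of the mice was not used. They comprised 3738 of 53779 in-frame rows, 12819 of 190549 in-frame unique molecular identifiers (UMIs, each of which tags 1 reverse-transcribed RNA molecule) and 1582 of 20615 clonotypes, a clonotype being a V name with a CDR3 amino acid sequence and a joining (J) segment. TRAV14 thus held 6.73% of in-frame UMIs and 7.67% of in-frame clonotypes. The 12 libraries each came from 1 mouse aged 3 weeks, with 4 mice per genotype: wt, Il2° (labelled Il2null, lacking interleukin-2) and Il15° (labelled Il15null, lacking interleukin-15). Mice of all 3 genotypes carried the Rag2-Gfp and Foxp3-Thy1a reporters, the Kaa Tcrb transgene and the Tcra+/null genotype. From each mouse 100000 CD4+CD8-Thy1.1+GFP+ thymocytes were sorted, Thy1.1 reporting Foxp3, the transcription factor that defines Treg, and GFP marking cells that had recently expressed Rag2. The transgene gives all cells the same TCRβ chain and the null allele leaves 1 Tcra allele to rearrange, so the TCRα repertoire is seen beside a single TCRβ and not as it is in a mouse with a free choice of both chains.

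TCRα genes are assembled in CD4+CD8+ thymocytes by joining a TRAV to a TRAJ segment, with bases trimmed from both ends and others added between them. The junction encodes CDR3, the loop that lies over the peptide in the MHC groove, while the loops CDR1 and CDR2 are fixed by the V segment. Rearrangement tends to start with TRAV segments near the TRAJ cluster and TRAJ segments at its 5′ end, and to proceed outwards as long as the cell is not positively selected. TRAV14 segments encode the chains known as Vα2 in the older naming. The mouse locus was duplicated, and the copies with D or N in their name are close relatives of those without.

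All 8 TRAV14 names in the tables matched the mm10 (GRCm38) annotation of GENCODE M21, which has 9 copies. Each copy is a V gene of 2 exons on the forward strand of chromosome 14. TRAV14-1 lies at chr14:53554022-53554558, TRAV14-2 at chr14:53640701-53641225 and TRAV14-3 at chr14:53763173-53763694, the last being closest to the TRAJ cluster. TRAV14D-1 lies at chr14:52855614-52856166, TRAV14D-2 at chr14:52948568-52949169 and TRAV14D-3/DV8 at chr14:53078452-53079045, farther upstream. TRAV14N-1 (chr14:53166626-53167178) and TRAV14N-2 (chr14:53259578-53260179) lie between these groups. The last 60 bases of the leading copies are shown because they hold the germline start of CDR3, in capitals, which is the same in every copy:
TRAV14-1: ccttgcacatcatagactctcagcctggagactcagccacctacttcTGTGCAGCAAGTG
TRAV14-2: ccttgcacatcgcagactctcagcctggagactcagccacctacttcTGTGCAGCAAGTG
TRAV14-3: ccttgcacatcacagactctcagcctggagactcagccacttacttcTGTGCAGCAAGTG
TRAV14D-1: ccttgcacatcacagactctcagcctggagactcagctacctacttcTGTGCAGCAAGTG
TRAV14D-3/DV8: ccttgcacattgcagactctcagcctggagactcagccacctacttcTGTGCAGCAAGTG
Over their last 270 bases TRAV14D-1 and TRAV14N-1 were identical, as were TRAV14D-2 and TRAV14N-2, whereas all other pairs of copies were 92.6% to 98.1% identical. The name of a copy therefore rests on 0 to 20 of these bases, and names that differ only by D or N were also merged into the genes TRAV14-1, TRAV14-2 and TRAV14-3. The merge follows the names and not always the sequence, as TRAV14D-1 differed from TRAV14-1 at 11 bases, from TRAV14-2 at 10 and from TRAV14-3 at 9. Within a library, 2 of 3736 sequences of CDR3 nucleotides and TRAJ carried more than 1 TRAV14 name. Across libraries, 26.2% of TRAV14 UMIs carried a CDR3 nucleotide sequence and TRAJ found elsewhere under another TRAV14 name, 16.0% under another TRAV14 gene and 5.02% under another TRAV family. Whether such sequences were separate rearrangements or different names for the same one was not tested.

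The junctions that the results turn on are shown because most of their bases were assigned to V or J. CDR3 are named by their amino acids as deposited or, where no amino acid run is printed, by a residue that sets them apart: the tyrosine CDR3 and the lysine CDR3 have that residue at position 4, the arginine CDR3 has it at position 5, the tryptophan CDR3 at position 6, and the alanine CDR3 has a pair of alanines after CAAS. Each is the most frequent nucleotide form of a CDR3, in lower case where the bases were assigned to V or J and in capitals where they were assigned to neither. The assignment is that of the deposited tables, and it runs past the annotated ends of the segments, by ca after the V end in the tryptophan and 17-residue CDR3 and by ta before the TRAJ27 start in the tyrosine CDR3:
The tyrosine CDR3 with TRAJ27: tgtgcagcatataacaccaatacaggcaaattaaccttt
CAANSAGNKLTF with TRAJ17: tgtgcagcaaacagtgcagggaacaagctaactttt
The tryptophan CDR3 with TRAJ12: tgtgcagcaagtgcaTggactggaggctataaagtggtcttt
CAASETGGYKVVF with TRAJ12: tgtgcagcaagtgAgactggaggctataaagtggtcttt
The arginine CDR3 with TRAJ12: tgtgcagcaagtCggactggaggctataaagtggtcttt
The 17-residue CDR3 with TRAJ2: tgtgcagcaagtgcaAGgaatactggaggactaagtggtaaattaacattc
The leading forms of the tyrosine CDR3 (345 UMIs) and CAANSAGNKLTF (399 UMIs) had 0 bases assigned to neither segment and were read in all 12 libraries. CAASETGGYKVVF (62 UMIs of its leading form) needed 1 such base. The J bases of these 3 TRAJ segments in the same annotation are shown for comparison, on the forward strand:
TRAJ12 (chr14:54206553-54206610): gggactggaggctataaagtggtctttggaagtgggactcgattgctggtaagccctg
TRAJ17 (chr14:54201775-54201837): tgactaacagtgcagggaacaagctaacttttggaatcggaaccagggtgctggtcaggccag
TRAJ27 (chr14:54192303-54192361): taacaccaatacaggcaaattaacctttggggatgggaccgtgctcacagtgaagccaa

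The depth of the libraries was 7625 to 25980 UMIs. It was 25980, 23915, 15977 and 17330 in wt mice, 13274, 18652, 15379 and 7625 in Il2° mice, and 18018, 13758, 10751 and 18589 in Il15° mice. TRAV14 held 925 to 1495 in-frame UMIs per wt library, 514 to 1217 per Il2° library and 784 to 1259 per Il15° library. At this depth a sequence with 0 UMIs could still hold up to 0.0121% (wt mouse 1) to 0.0411% (Il2° mouse 4) of in-frame UMIs, the share that 3 UMIs make. UMIs count RNA molecules and not cells, so more cells and more Tcra RNA per cell cannot be told apart.

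TRAV14 made up a larger share of the repertoire in Il15° Treg than in wt or Il2° Treg. It held 6.03%, 6.16%, 6.0% and 6.46% of in-frame UMIs in wt mice. The shares were 6.77%, 6.90%, 6.14% and 7.05% in Il2° mice, and 7.08%, 8.85%, 7.58% and 7.07% in Il15° mice. All Il15° libraries lay above all others, though the lowest of them and the highest Il2° library were nearly equal, with overlapping 95% Wilson intervals (6.70% to 7.45% for Il15° mouse 4 and 6.48% to 7.66% for Il2° mouse 4, counting error only). The means were 6.16% ± 0.21 (wt), 6.72% ± 0.40 (Il2°) and 7.64% ± 0.84 (Il15°; SD, n = 4 each). Il15° exceeded wt 1.24-fold and Il2° 1.14-fold, each with p = 0.0286 in an exact 2-sided Mann-Whitney test, the smallest p that 4 against 4 mice can give (0.0429 after Benjamini-Hochberg adjustment over 3 comparisons). Il2° and wt overlapped (exact Mann-Whitney p = 0.114, also 0.114 adjusted). The adjustment covers the 3 comparisons of TRAV14 alone, and not the choice of TRAV14 among 19 families. Shares that did not overlap and were higher were found for 5.26% of 19 TRAV families in Il15° against wt and for 10.5% in Il15° against Il2°. When each clonotype was counted once and not by its UMIs, TRAV14 held 7.08%, 7.41% and 7.55% of in-frame clonotypes on average in wt, Il2° and Il15° mice, and the genotypes overlapped.

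Fitted with all other TRAV families (edgeR quasi-likelihood test, p adjusted over 19 families), TRAV14 rose in Il15° against Il2° by 0.38 ± 0.10 (log2 fold change ± SE, adjusted p = 0.0234). Adjusted p under 0.05 in this comparison was reached by 10.5% of families, and unadjusted p under 0.05 by 26.3%. Against wt the log2 fold change in Il15° was 0.28 ± 0.09 (unadjusted p = 0.0081, adjusted p = 0.154, with 0.0% of families called). In Il2° against wt it was -0.10 ± 0.10 (adjusted p = 0.579, with 5.26% called), although the mean share was higher in Il2° mice. This sign turned to 0.12 when libraries were scaled by their total alone, a change of scaling that moved the median family in this comparison from 0.01 to 0.23 and, in Il15° against Il2°, from -0.07 to -0.26. The edgeR call in Il15° against Il2° was lost without Il15° mouse 1 (0.28), Il15° mouse 4 (0.25), Il2° mouse 3 (0.20) or Il2° mouse 4 (0.28). It was also lost with 8 other settings, among them DESeq2 (0.37, adjusted p = 0.103), limma (0.18, adjusted p = 0.267), edgeR without the filter on low counts (0.36, adjusted p = 0.111) and scaling by library total (0.19, edgeR adjusted p = 0.311). Leaving out CDR3 sequences that also occurred under another family gave 5.81%, 6.38% and 7.30% in wt, Il2° and Il15° mice, with Il15° still above every wt mouse and overlapping Il2°.

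**Figure D1:**
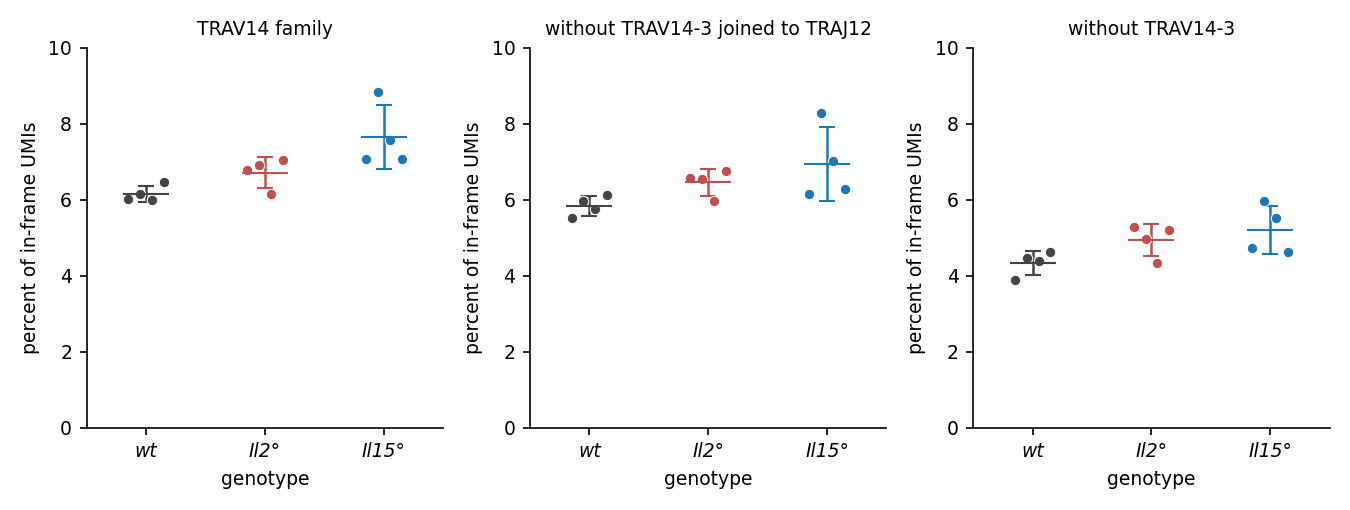
Share of in-frame UMIs (percent, y axis) held by TRAV14 in each of the 12 libraries, by genotype (x axis), for the whole family, the family without TRAV14-3 joined to TRAJ12, and the family without TRAV14-3. Points are mice, lines are means and bars are SD (n = 4); the Il15° mice sit between 7.07% and 8.85% in the left panel, above all others, and overlap both other genotypes in the right panel.

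Among 20 TRAV families with in-frame reads, TRAV14 was the fifth largest, at a mean of 6.84% over the 12 libraries, after TRAV4 (31.9%), TRAV7 (20.1%), TRAV12 (9.81%) and TRAV6 (9.74%). The families whose share varied most like that of TRAV14 over the 12 libraries were TRAV9 (Spearman ρ = 0.35), TRAV6 (0.24) and TRAV10 (0.20), none of them close. Shares in a library sum to the same total, which ties these values to each other.

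TRAV14-1 was the most used gene of the family, with 6531 UMIs or 50.9% of TRAV14 UMIs. TRAV14-3 followed with 3836 (29.9%) and TRAV14-2 with 2452 (19.1%). By name, TRAV14-1 without D or N held 35.6% of TRAV14 UMIs, TRAV14-2 16.8%, TRAV14D-3/DV8 16.5%, TRAV14D-1 14.2% and TRAV14-3 13.4%. TRAV14N-2 held 1.83% and was read in 10 libraries, TRAV14N-1 1.1% in 5 libraries, and TRAV14D-2 0.46% in 9 libraries. TRAV14N-1 comprised 3 clonotypes, and 103 of its 143 UMIs were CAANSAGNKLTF with TRAJ17, a CDR3 that had 654 UMIs under TRAV14-1.

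Of the genes, TRAV14-3 was higher in Il15° than in Il2° mice. It held 2.13%, 1.70%, 1.61% and 1.83% of in-frame UMIs in wt mice. The shares were 1.5%, 1.94%, 1.81% and 1.84% in Il2° mice and 2.36%, 2.88%, 2.07% and 2.44% in Il15° mice. Il15° mice lay above every Il2° mouse and overlapped wt, where mouse 1 was above Il15° mouse 3. Such a separation upwards from Il2° was found for 6.67% of 45 genes. The log2 fold change was 0.64 ± 0.19 against Il2° (edgeR, adjusted p = 0.0212, 8.89% of 45 TRAV genes called, 6.67% as higher) and 0.44 ± 0.15 against wt (unadjusted p = 0.0105, adjusted p = 0.482, 0.0% called, 4.35% with an unadjusted p under 0.05). The call against Il2° was lost without Il15° mouse 1 (edgeR adjusted p = 0.174), Il15° mouse 4 (0.0951), Il2° mouse 2 (0.0523), Il2° mouse 3 (0.10) or Il2° mouse 4 (0.0531), and also with limma (0.46, adjusted p = 0.217), without the filter on low counts (0.56, edgeR adjusted p = 0.0796) and with scaling by library total (0.46, edgeR adjusted p = 0.139). By name, TRAV14-3 itself passed (0.86 ± 0.23, edgeR adjusted p = 0.0477, 2.53% of names called) and TRAV14D-3/DV8 did not (0.41 ± 0.22, adjusted p = 0.33).

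TRAV14-1 held 2.92%, 3.22%, 3.03% and 3.25% of in-frame UMIs in wt mice. In Il2° mice it held 4.12%, 3.70%, 3.19% and 3.95%, and in Il15° mice 3.31%, 4.72%, 3.46% and 3.28%. Every Il15° mouse was above every wt mouse, by little in 3 of 4, and 2.17% of genes showed such a separation upwards. No fit called TRAV14-1 (log2 fold change 0.26 ± 0.13 in Il15° against wt, edgeR adjusted p = 0.715). Without Il15° mouse 2 this change was 0.15. TRAV14-2, at 1.24% ± 0.18, 1.21% ± 0.07 and 1.51% ± 0.36 in wt, Il2° and Il15° mice, overlapped between all genotypes, and its highest value, 2.05%, was in Il15° mouse 3. Its log2 fold change in Il15° against Il2° was 0.51 ± 0.22, near that of TRAV14-3, and did not pass (unadjusted p = 0.0252, edgeR adjusted p = 0.189, with 9 of 45 genes at an unadjusted p under 0.05), although it passed when all 12 libraries were fitted together (0.68, edgeR adjusted p = 0.0257), where 8 of 45 genes were called. Without Il15° mouse 3 the change of TRAV14-2 was 0.33 and that of TRAV14-3 was 0.70. In Il2° against wt none of the 3 genes passed, with log2 fold changes of 0.08 (TRAV14-1), -0.24 (TRAV14-2) and -0.24 (TRAV14-3), while 2.22% of genes were called. With scaling by library total these changes were 0.27, -0.04 and -0.04. Without Il2° mouse 1 that of TRAV14-1 was -0.02.

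Among the V-J pairs of TRAV14-3, that with TRAJ12 was higher in Il15° than in Il2° mice. TRAV14-3 joined to TRAJ12 held 0.500%, 0.192%, 0.233% and 0.323% of in-frame UMIs in wt mice. It held 0.196%, 0.357%, 0.185% and 0.302% in Il2° mice, and 0.933%, 0.573%, 0.571% and 0.769% in Il15° mice. All Il15° mice lay above all others, with means of 0.312% ± 0.137, 0.260% ± 0.083 and 0.711% ± 0.174. Such a separation upwards was found for 2.14% of all pairs against wt and 3.03% against Il2°. Of 42 TRAV14 pairs tested in Il15° against Il2°, this was the only one called (log2 fold change 1.51 ± 0.33, edgeR adjusted p = 0.0133), while 0.466% of 429 pairs of all families were called. Against wt the change was 1.22 ± 0.32 (unadjusted p = 0.00119, edgeR adjusted p = 0.279, 0.0% of 467 pairs called), and 0 of 49 TRAV14 pairs passed, with 4 at an unadjusted p under 0.05 (5.14% of all pairs were). The call against Il2° was lost without Il15° mouse 1 (edgeR adjusted p = 0.101), Il15° mouse 4 (0.055) or Il2° mouse 3 (0.224), with TRAV names as deposited (1.33, edgeR adjusted p = 0.182) and with limma (1.44, adjusted p = 0.23), and the change against wt passed only without wt mouse 1 (1.54, edgeR adjusted p = 0.0415).

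In the rest of the gene and the rest of TRAJ12 the genotypes overlapped. TRAV14-3 with any other TRAJ held 1.51% ± 0.10, 1.51% ± 0.14 and 1.73% ± 0.40 in wt, Il2° and Il15° mice, and all genotypes overlapped. TRAV14-1 and TRAV14-2 with TRAJ12 held 0.577%, 0.595% and 0.574%, again with overlap. All other TRAV with TRAJ12 held 7.32% ± 1.01, 7.91% ± 0.64 and 7.70% ± 0.59, with overlap. Without this pair the family was at 5.85% ± 0.26, 6.46% ± 0.35 and 6.93% ± 0.97, so that Il15° mice stayed above wt mice but overlapped Il2° mice. The pair was singled out in these data as high in Il15° mice, so leaving it out had to lower the Il15° excess. TRAV14-3 with TRAJ15 went the other way, at 0.0454% to 0.0917% in wt, 0.0785% to 0.0851% in Il2° and 0% to 0.0281% in Il15° mice, below all others. It did not pass (log2 fold change -1.95 ± 0.85 against wt, edgeR adjusted p = 0.806, and -2.23 ± 0.97 against Il2°, edgeR adjusted p = 0.333), rested on 108 UMIs over the 12 libraries, most of them in the wt and Il2° mice through which it passed the filter, and such a separation downwards was found for 3.64% and 3.26% of all pairs. These differences between pairs were not tested against each other. Within TRAV14-3, TRAJ12 took 16.7% ± 5.2 (wt), 14.5% ± 3.6 (Il2°) and 29.6% ± 8.1 (Il15°) of the UMIs.

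**Figure D2:**
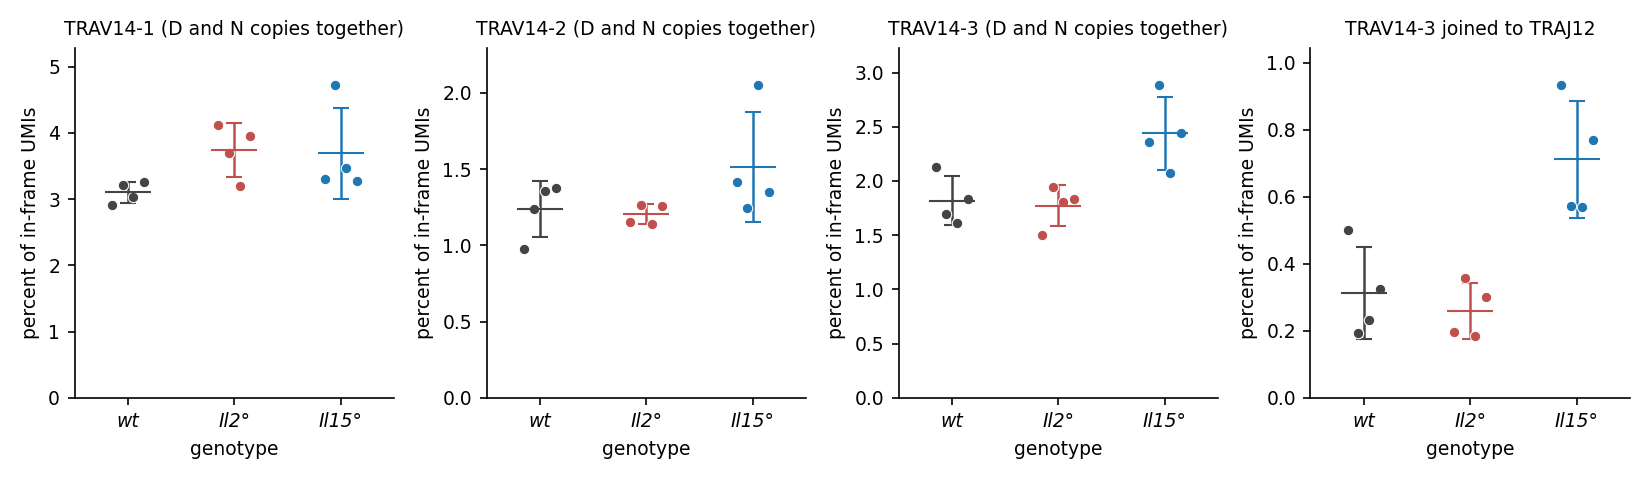
Share of in-frame UMIs (percent, y axes, each from 0 on its own scale) of TRAV14-1, TRAV14-2, TRAV14-3 and TRAV14-3 joined to TRAJ12 in each library, by genotype (x axis). Points are mice, lines means and bars SD (n = 4); in the right panel the Il15° mice sit between 0.571% and 0.933%, above the wt mice (up to 0.500%) and the Il2° mice (up to 0.357%).

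The pair was not a single clone. It held 67 CDR3 amino acid sequences in 827 UMIs, of which the leading 6 made up 58.8%, and only the arginine CDR3 was read in all 12 libraries. The arginine CDR3 had 25, 8, 11 and 22 UMIs in wt mice. It had 6, 2, 2 and 5 in Il2° mice and 23, 21, 2 and 36 in Il15° mice. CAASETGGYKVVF had 4, 4, 0 and 0 UMIs in wt mice. It had 4, 5, 4 and 2 in Il2° mice and 12, 12, 19 and 18 in Il15° mice, so it was lowest in wt and highest in Il15° in each comparison of shares. The alanine CDR3 had 3, 2, 0 and 0 in wt, 0, 1, 1 and 0 in Il2°, and 10, 13, 2 and 14 in Il15° mice. Outside the leading 6, the remaining CDR3 together held 0.199%, 0.149% and 0.391% of in-frame UMIs in wt, Il2° and Il15° mice, with Il15° above every Il2° mouse and overlapping wt, where mouse 1 (0.326%) was above Il15° mice 2 and 3. The leading CDR3 differ at the residue or residues between the germline CAAS and the TGGYKVVF or GGYKVVF of TRAJ12.

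In Il2° against wt, 0 of 50 TRAV14 pairs passed (edgeR, 0.42% of 476 pairs of all families called), and 4 had an unadjusted p under 0.05 (12.8% of all pairs did). The smallest p values, which did not pass, belonged to TRAV14-3 with TRAJ39 (unadjusted p = 0.00338, edgeR adjusted p = 0.132) and TRAV14-3 with TRAJ33 (unadjusted p = 0.0085, edgeR adjusted p = 0.19). TRAV14-3 with TRAJ39 held 0.0766%, 0.0830%, 0.0324% and 0.0718% in wt mice and 0%, 0.00567%, 0% and 0.0274% in Il2° mice. TRAV14-3 with TRAJ33 held 0.0282%, 0.0393%, 0.0713% and 0.0359% in wt mice and 0.00785%, 0%, 0.00687% and 0% in Il2° mice. Both were lower in every Il2° than in every wt mouse, as were 4.83% of all pairs. Both passed the filter of at least 5 UMIs in at least 4 libraries through the wt mice alone, a selection that favours pairs lower in Il2° mice, and rested on few UMIs, 100 and 53 over the 12 libraries. In Il15° against wt the second smallest p, also not passing, was that of TRAV14-2 with TRAJ26 (unadjusted p = 0.0101, edgeR adjusted p = 0.608), at 0.338% in Il15° mouse 3 and 0.0521% to 0.0841% in the other Il15° mice. The median log2 fold change of the TRAV14 pairs tested was 0.04 in Il2° against wt, 0.33 in Il15° against wt and 0.10 in Il15° against Il2°, beside 0.09, 0.04 and -0.03 for pairs of all families.

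TRAV14 used the TRAJ cluster differently from the other TRAV families. TRAV14 was joined to 40 of the 43 TRAJ segments read in frame, in 115 V-J pairs. The mean TRAJ number, which falls towards the 3′ end, was 20.9 ± 0.8 for TRAV14 and 23.7 ± 0.6 for all other TRAV (SD, n = 12 libraries). It was lower for TRAV14 in all 12 libraries, by 2.82 ± 0.64, with p = 0.000488 in an exact 2-sided sign-flip test, the smallest that 12 libraries allow. With each clonotype counted once the difference was -1.61, again lower in all 12. Of 14 families with at least 20 UMIs in every library, 57.1% lay on the same side of all other TRAV in all 12 libraries, and TRAV14 had the 3rd lowest mean. Of 27 TRAJ compared between TRAV14 and all other TRAV, 11 were higher (40.7%) and 12 lower (44.4%) after Benjamini-Hochberg adjustment (exact sign-flip test over 12 libraries).

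TRAJ12 led, with 14.7% ± 2.6 of TRAV14 UMIs against 8.20% ± 0.81 of all other TRAV. TRAJ27 followed with 10.9% ± 2.4 against 4.89% ± 0.57, and TRAJ17 with 8.80% ± 1.91 against 4.23% ± 0.46. Few CDR3 held most of these UMIs. Of 1375 TRAV14 UMIs with TRAJ27, 741 were the tyrosine CDR3 and 276 the lysine CDR3. Of 1133 with TRAJ17, 765 were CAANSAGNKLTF. TRAJ2 was rare in both sets but stood further apart as a ratio, at 2.26% ± 1.11 against 0.577% ± 0.119. Of its 306 TRAV14 UMIs, 253 belonged to 1 CDR3, that of 17 residues. TRAJ12, TRAJ27, TRAJ17, TRAJ2 and TRAJ6 (2.76% against 1.31%) were higher in 12 of 12 libraries, and TRAJ21 (7.36% against 4.41%) and TRAJ13 (4.40% against 2.44%) in 11. TRAJ9, at 7.32% ± 1.36 against 7.15% ± 0.91, did not pass (exact sign-flip adjusted p = 0.669). TRAJ31 was lower, at 4.42% ± 1.97 against 9.36% ± 1.18, as were TRAJ37 (1.73% against 5.51%), TRAJ23 (3.13% against 6.64%), TRAJ15 (3.22% against 5.60%), TRAJ16 (0.321% against 1.92%) and TRAJ18 (0.386% against 2.93%), all in 12 of 12 libraries. TRAJ22 was lower in 10 of 12 (3.88% against 5.83%). By UMIs, neighbours in the TRAJ cluster thus went opposite ways, TRAJ12, TRAJ13 and TRAJ17 being used more and TRAJ15, TRAJ16 and TRAJ18 less by TRAV14. When each clonotype was counted once, 14 and not 23 TRAJ passed.

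**Figure D3:**
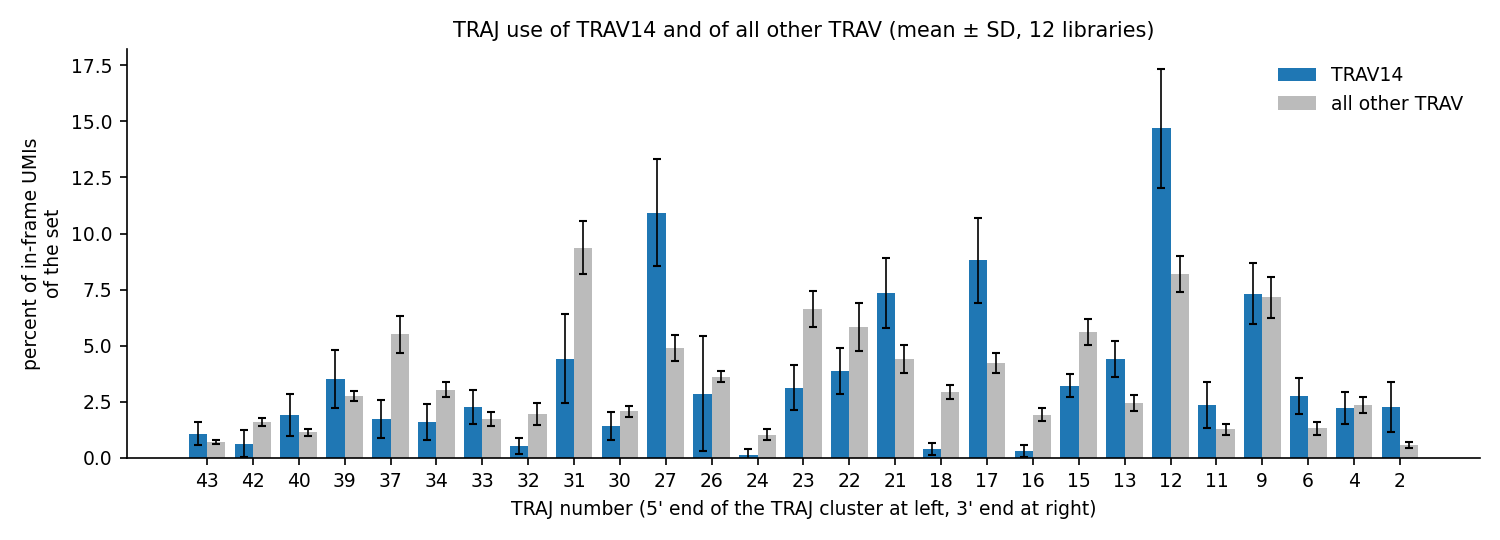
Percent of in-frame UMIs (y axis) joined to each of 27 TRAJ segments (x axis, 5′ to 3′) for TRAV14 and for all other TRAV; bars are means and error bars SD over 12 libraries. TRAV14 stands above the other TRAV at TRAJ27 (10.9%), TRAJ17 (8.80%) and TRAJ12 (14.7%) and below them at TRAJ37 (1.73%), TRAJ31 (4.42%) and TRAJ18 (0.386%).

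None of the 8 leading TRAJ of TRAV14 (TRAJ12, TRAJ27, TRAJ17, TRAJ21, TRAJ9, TRAJ31, TRAJ13 and TRAJ22) separated the genotypes as a share of TRAV14 UMIs. For TRAJ12 the shares were 17.1%, 13.6%, 12.3% and 14.6% in wt, 9.15%, 12.7%, 13.4% and 15.6% in Il2°, and 18.8%, 15.1%, 16.3% and 17.5% in Il15° mice. As a share of all in-frame UMIs, TRAV14 with TRAJ12 held 0.889% ± 0.127, 0.855% ± 0.196 and 1.29% ± 0.06, the lowest Il15° mouse (1.23%) lying above all others. TRAV14 with TRAJ31 held 0.328% ± 0.058, 0.288% ± 0.178 and 0.293% ± 0.209 of in-frame UMIs, and the genotypes overlapped.

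The leading partner differed between the 3 genes of the family, though TRAJ12 was among the leading partners of each. These differences were not tested. TRAV14-1 was joined most to TRAJ17 (15% of its UMIs over the 12 libraries), TRAJ12 (12.4%) and TRAJ21 (8.22%). TRAV14-2 was dominated by TRAJ27 at 36.1%, ahead of TRAJ12 (11.6%) and TRAJ22 (8.73%). TRAV14-3 was joined most to TRAJ12 (20.3%), TRAJ13 (10.7%) and TRAJ9 (10.4%). The mean TRAJ number was 20.7 ± 1.0 for TRAV14-1, 24.1 ± 1.6 for TRAV14-2 and 19.4 ± 1.7 for TRAV14-3. The leading partner of TRAV14-2 came mostly from 1 CDR3, that with tyrosine, with 706 of the 865 UMIs of that pair under the name TRAV14-2, and that of TRAV14-1 mostly from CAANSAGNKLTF.

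Most CDR3 of TRAV14 had 12 to 14 residues, and lengths 12 and 13 were used more than in all other TRAV. Length 13 held 40.0% ± 2.6 of TRAV14 UMIs against 33.4% ± 1.8 of all other TRAV. Length 12 held 21.8% ± 2.3 against 16.2% ± 0.6, and both were higher in 12 of 12 libraries. Of the 12819 TRAV14 UMIs, 741 were the tyrosine CDR3 with TRAJ27 (13 residues) and 765 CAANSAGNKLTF with TRAJ17 (12 residues). The length shares without these CDR3 were not computed. Length 11 (4.16% against 8.80%) and length 15 (3.74% against 6.77%) were lower in 12 of 12, and length 14 (25.6% against 31.1%) in 11. Length 17 was rare elsewhere, at 0.117% ± 0.057, and held 2.05% ± 1.00 in TRAV14, higher in 12 of 12 libraries. The 17-residue CDR3 with TRAJ2 whose junction is printed above had 253 UMIs. The mean length was 13.11 ± 0.07 residues in TRAV14 and 13.08 ± 0.02 in all other TRAV, a difference of 0.04 that did not pass (exact sign-flip p = 0.166). It passed without Il2° mouse 1 (0.05, exact sign-flip p = 0.0283). The mean number of bases assigned to neither V nor J was 2.18 ± 0.20 in TRAV14 and 2.53 ± 0.32 in all other TRAV, lower in 10 of 12 libraries by 0.36 ± 0.27 (exact sign-flip p = 0.00293). With each clonotype counted once the difference was -1.15, lower in 12 of 12 libraries, and with clonotypes of at least 2 UMIs it was -0.19. Of 14 families, 14.3% lay on the same side in all 12 libraries by UMIs, which TRAV14 did not. Fewer added bases did not go with more junctions without any, since 28.4% ± 3.5 of TRAV14 UMIs and 33.1% ± 1.2 of other UMIs had 0 such bases.

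**Figure D4:**
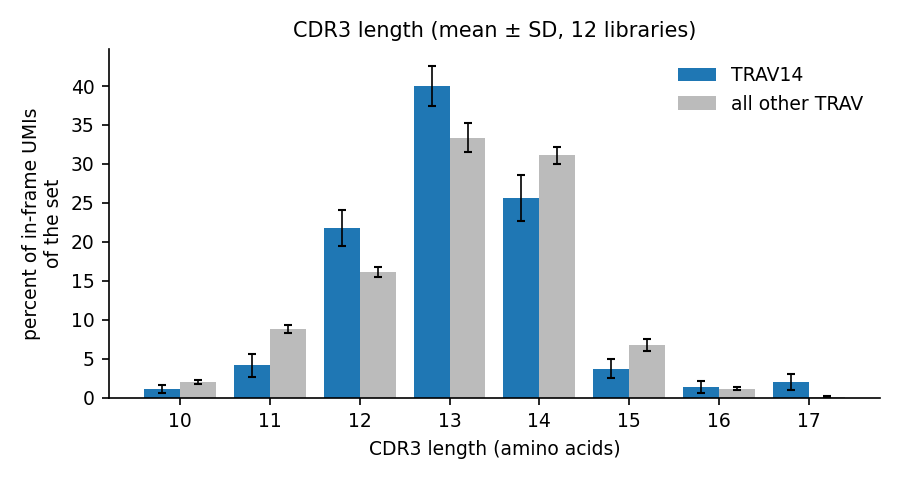
Percent of in-frame UMIs (y axis) by CDR3 length in amino acids (x axis) for TRAV14 and for all other TRAV; bars are means and error bars SD over 12 libraries. TRAV14 stands higher at 12 (21.8%), 13 (40.0%) and 17 residues (2.05%) and lower at 11 (4.16%), 14 (25.6%) and 15 (3.74%).

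The first residues of CDR3 follow from the V call and are given as a description. Of TRAV14 UMIs, 97.6% encoded CAA, and 45.2% CAAS, the germline start. CAAR (16.1%), CAAN (7.11%), CAAY (6.0%) and CAAK (5.85%) followed, these being starts in which the germline serine was lost. Serine at position 4 was kept by 63.7% ± 6.3 of TRAV14-3 UMIs, 38.9% ± 6.0 of TRAV14-1 UMIs and 34.9% ± 12.9 of TRAV14-2 UMIs. In the centre of CDR3 (first 4 and last 4 residues left out), acidic residues made up 2.13% ± 0.84 of positions in TRAV14 and 3.00% ± 0.22 in all other TRAV, lower in 11 of 12 libraries. Hydrophobic residues (15.3% against 15.1%), basic residues (3.87% against 4.03%) and glycine (23.9% against 24.1%) were higher in 6 and lower in 6 of 12 libraries. None of the 10 CDR3 features measured, from TRAJ number to residue classes, separated any genotypes in TRAV14 taken as a whole. Of 14 families, 0.0% to 21.4% were separated by a feature. Some features did separate genotypes within a gene, which was not tested and not counted for other families. In TRAV14-1, serine at position 4 held 29.3% to 36.0% in Il15°, 38.3% to 45.5% in wt and 37.0% to 50.5% in Il2° mice. In TRAV14-3, the mean TRAJ number was 17.0 to 18.6 in Il15°, 19.5 to 22.7 in wt and 18.4 to 22.2 in Il2° mice.

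The most abundant TRAV14 clonotypes were shared by the mice of every genotype. Taken over all TRAV14 names, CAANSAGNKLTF with TRAJ17 led with a mean of 0.41% of in-frame UMIs. It held 0.407%, 0.354%, 0.214% and 0.293% in wt, 0.675%, 0.352%, 0.309% and 0.329% in Il2°, and 0.405%, 0.895%, 0.338% and 0.348% in Il15° mice. The tyrosine CDR3 with TRAJ27 held 0.222%, 0.288%, 0.447% and 0.551% in wt, 0.604%, 0.267%, 0.364% and 0.370% in Il2°, and 0.585%, 0.298%, 0.261% and 0.494% in Il15° mice. For both CDR3 the genotypes overlapped. The tryptophan CDR3 with TRAJ12 (0.172%) was read under 5 TRAV14 names, with 146 UMIs under TRAV14N-2, 116 under TRAV14-1 and 31 under TRAV14D-3/DV8. The lysine CDR3 with TRAJ27 (0.142%), the 17-residue CDR3 with TRAJ2 (0.125%), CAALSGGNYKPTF with TRAJ6 (0.120%), the 14-residue TRAJ12 CDR3 with lysine at position 6 (0.106%), the arginine CDR3 with TRAJ12 (0.0829%) and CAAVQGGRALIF with TRAJ15 (0.0776%) also occurred in all 12 libraries, and in all of them the genotypes overlapped. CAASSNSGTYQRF with TRAJ13, with 95 UMIs under TRAV14-3 and 85 under TRAV14D-3/DV8, did not overlap between Il15° and wt. Over all TRAV14 names every Il15° mouse was above every wt mouse, as for 2.01% of 546 clonotypes of all families taken over names.

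Names moved the apparent difference for the leading clonotype. Under TRAV14-1 alone, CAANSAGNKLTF held 0.161% to 0.293% in wt, 0.309% to 0.612% in Il2° and 0.330% to 0.895% in Il15° mice, without overlap with wt. In wt mouse 1 and mouse 2 part of it was named TRAV14N-1, and over all names the genotypes overlapped.

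With the filter on low counts and clonotypes defined by amino acids, no TRAV14 clonotype passed in any comparison with edgeR, and 0.0% of clonotypes of all families did. Of 25 TRAV14 clonotypes tested in Il2° against wt, 4 had an unadjusted p under 0.05 (10.4% of 452 in all families). In Il15° against wt they were 4 of 34 (4.08% of 466), and in Il15° against Il2° 5 of 29 (9.38% of 352). DESeq2 called 0, 2 and 1 TRAV14 clonotypes in these comparisons (6 of 452, 5 of 466 and 6 of 352 in all families), and limma 0, 1 and 0 (0, 3 and 0 in all families). In Il15° against wt the smallest p was that of TRAV14D-3/DV8 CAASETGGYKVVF with TRAJ12, at 0.0161%, 0.00437%, 0% and 0% in wt, 0.0314%, 0.0284%, 0.0275% and 0.0274% in Il2°, and 0.0637%, 0.0918%, 0.184% and 0.101% in Il15° mice. It would not have passed the filter on low counts without the 4 Il15° libraries, so it was selected for being high there. Its log2 fold change was 4.03 ± 1.01 against wt (unadjusted p = 0.00114, edgeR adjusted p = 0.178) and 1.94 ± 0.79 against Il2° (edgeR adjusted p = 0.372). Every Il15° mouse was above every other mouse, as for 1.93% (against wt) and 4.55% (against Il2°) of all clonotypes tested. Il2° mice also lay above wt mice, a comparison in which it had too few UMIs to be tested. Over all TRAV14 names the change against wt was 3.50 ± 0.89 (edgeR adjusted p = 0.099).

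TRAV14-3 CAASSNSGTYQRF with TRAJ13 came next, at 0.0121%, 0.00437%, 0.0583% and 0.0180% in wt, 0.0314%, 0%, 0.00687% and 0% in Il2°, and 0.0753%, 0.168%, 0.193% and 0.107% in Il15° mice. The change was 2.54 ± 0.79 against wt (unadjusted p = 0.00549, edgeR adjusted p = 0.405) and 3.71 ± 1.02 against Il2° (unadjusted p = 0.00205, edgeR adjusted p = 0.24), and neither passed. Against Il2° it too passed the filter through the 4 Il15° libraries alone. Against wt it likewise would not have passed the filter without the Il15° libraries. Over all TRAV14 names it shrank to 1.02 ± 0.48 against wt and 0.95 ± 0.58 against Il2°, since the same CDR3 was also read as TRAV14D-3/DV8, where it went the other way (-1.58 against wt and -1.54 against Il2°). In Il2° against wt the smallest p values, not passing, were those of TRAV14-3 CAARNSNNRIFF with TRAJ31 (-2.43 ± 0.96, edgeR adjusted p = 0.429) and TRAV14-1 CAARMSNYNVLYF with TRAJ21 (-2.10 ± 0.83, edgeR adjusted p = 0.429). Both passed the filter through the wt libraries alone. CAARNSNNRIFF held 0.0479% to 0.0778% in wt mice under TRAV14-3 and 0% to 0.0275% in Il2° mice.

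Public TRAV14 clonotypes, those read in all 4 mice of a genotype, numbered 33 in wt, 22 in Il2° and 30 in Il15° mice, and 11 were read in all 12. The deeper wt libraries can hold more of them for their depth alone, and depth was not equalised. Of the wt public clonotypes 45.5% were also public in Il2° and 51.5% in Il15° mice, and of those public in Il2° and Il15° mice 68.2% and 56.7% were public in wt. For all other TRAV the first pair of shares was 45.1% and 38.3% and the second 65.8% and 60.1%, and the difference between TRAV14 and these was not tested. Taken over TRAV14 names, 43, 34 and 35 were public and 16 were read in all 12 libraries. These 16 made up 29.8% ± 4.1 of TRAV14 UMIs, beside 36.1% ± 1.6 for the 220 equally shared ones of all other TRAV. At the other end, 52.7% of TRAV14 clonotypes were read in a single library and 17.9% (283) with a single UMI. In all other TRAV 52.6% of clonotypes were read in a single library, nearly the same share.

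Treg identity cannot be checked from TCRα alone. Rearrangements typical of other cells were few. Those of invariant NKT cells (TRAV11 or TRAV11D with TRAJ18, 15 residues) had 8, 5, 8 and 15 UMIs in wt mice, 9, 5, 2 and 1 in Il2° mice and 11, 15, 1 and 1 in Il15° mice. Those with TRAV1 and TRAJ33, the pair of MAIT cells, had 16, 28, 5 and 12 UMIs in wt mice, 19, 10, 6 and 18 in Il2° mice and 0, 0, 3 and 2 in Il15° mice. The latter were lower in Il15° mice without overlap, moving with the TRAV14 share in the opposite direction, and their part in it was not tested. The highest count was 28 of 22890 in-frame UMIs, in a library with 1409 UMIs of TRAV14.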

How the data were processed

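The authors sorted 100000 cells per mouse, sequenced Tcra transcripts with UMIs, and processed reads with pRESTO (quality filter, consensus per UMI), MiXCR (alignment and clonotype assembly) and VDJtools; the genome build given with the labels is mm10. The count column of the deposited tables holds UMIs per clonotype as counts, not normalised, and was used. The deposited fraction column, a share of the library, was not used. In-frame rows (no stop or frameshift in the CDR3) were summed per TRAV family, gene (D and N copies together), V-J pair and clonotype. The tables of all families were fitted with edgeR 4.0.16 (R 4.3.3; TMM, quasi-likelihood) on the 8 libraries of the genotypes compared, keeping features with at least 5 UMIs in at least 4 libraries, with Benjamini-Hochberg adjustment over all features and a threshold of 0.05. Family shares were compared by exact 2-sided Mann-Whitney tests, and TRAV14 with all other TRAV in the same library by exact 2-sided sign-flip tests (Python 3.11.15, scipy 1.17.1).

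Clonotypes named were the 10 TRAV14 clonotypes with the highest mean share, the leading one of each V name, and, per comparison, up to 5 past the threshold or else the 2 with the smallest p. TRAJ named were the 8 with the highest share of TRAV14 and those compared with all other TRAV. The alanine CDR3 and the other CDR3 of the TRAV14-3 and TRAJ12 pair, and the pair of TRAV14-3 with TRAJ15, were named after their values were seen. The members and the lists were chosen with earlier results of these data known. Alternatives were DESeq2 1.42.0, limma 3.58.1 on log2(percent + 0.01), other scalings, filters, clonotype definitions and leaving out each library. Scaling by library total, TRAV14 clonotypes without regard to name, the test per TRAJ and the shares with ambiguous sequences left out or added were chosen after seeing the data. The edgeR and sign-flip steps were tested on simulated data. Intervals and limits of detection cover counting error only. Out-of-frame rows were left out of the comparisons and entered only the alternative that took all rows. Of 105 TRAV names, 102 matched the annotation.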

Additional observations from a re-analysis of the deposited data

Results flagged for a closer look

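In groups of 4 libraries, a value was singled out where its gap to the nearest of the others was too large a part of the range of the group by Dixon's test at the 95% level. This held for 15 of 189 groups looked at, and chance alone gives about 1 in 20. Groups share UMIs where a gene holds its pairs and clonotypes, so the flags are not independent of each other. Il15° mouse 2 stood high for TRAV14-1 with D and N copies together (4.72% of in-frame UMIs, the others 3.28% to 3.46%), for TRAV14-1 with TRAJ17 (0.941%, the others 0.522% to 0.556%) and for TRAV14-1 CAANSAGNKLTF with TRAJ17 (0.895%, the others 0.330% to 0.348%). The same mouse stood high for TRAV14-3 with TRAJ31 (0.359%, the others 0.0505% to 0.0774%), TRAV14-1 with TRAJ6 (0.321%, the others 0.146% to 0.168%) and TRAV14-3 with TRAJ33 (0.0994%, the others up to 0.0168%). It also had the highest family share.

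Il15° mouse 3 stood high for the name TRAV14-2 (2.05%, the others 1.14% to 1.26%), TRAV14-2 with TRAJ26 (0.338%, the others 0.0521% to 0.0841%), V bases kept in CDR3 (12, the others 11.4) and serine at position 4 (50.3% of TRAV14 UMIs, the others 40.8% to 41.9%). Il15° mouse 1 was the only Il15° mouse with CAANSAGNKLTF named TRAV14N-1 (0.0753%).

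In Il2° mice, mouse 1 stood low for TRAV14D-3/DV8 (0.659%, the others 1.10% to 1.18%) and high for TRAV14-1 with TRAJ17 (0.691%, the others 0.448% to 0.488%) and TRAV14-1 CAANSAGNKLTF (0.612%, the others 0.309% to 0.352%). Mouse 3 stood low for TRAV14-1 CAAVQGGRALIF with TRAJ15 (0.0481%, the others 0.0785% to 0.0823%).

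Out-of-frame TRAV14 rows, which entered only the alternative that took all rows, held 872 UMIs. Of these, 427 (49.0%) were joined to TRAJ7, which held 24.1% of the out-of-frame UMIs of all other TRAV. TRAJ44 held 14.4% against 26.2% and TRAJ47 6.08% against 22.3%. These differences were not tested.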

How the results depend on the processing

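For the TRAV14 family in Il2° against wt, the direction turned with limma (0.12) and with scaling by library total (0.12). The change in Il15° against wt (0.28) passed with DESeq2 alone (0.37, adjusted p = 0.0199). The change in Il15° against Il2° kept its direction in all 18 alternatives but no longer passed with DESeq2 (0.37), limma (0.18), RLE scaling (0.37), no filter (0.36), a minimum of 10 UMIs (0.35), all rows (0.26), scaling by library total (0.19) or each clonotype counted once (0.23). Leaving out 1 library gave 0.20 to 0.41. TRAV14 genes called in Il15° against Il2° were 1, and 2 with all 12 libraries in 1 fit (of all genes, 4 and 8 of 45). They were 0 with limma, no filter or scaling by library total (of all genes, 1 of 45, 2 of 49 and 2 of 45). With 1 library left out they were 0 to 1 (of all genes, 0 to 6 of 45). V-J pairs called in Il15° against Il2° were 1, and 0 with limma, 0 with names as deposited (of all families, 2, 0 and 0) and 0 to 1 with 1 library left out (of all families, 0 to 12). In Il15° against wt they were 0 to 1 with 1 library left out (of all families, also 0 to 1). TRAV14 clonotypes called rose from 0 to 1 without a filter in Il2° against wt (2 of 16684 in all families), to 2 with DESeq2 and 1 with limma in Il15° against wt (5 and 3 of 466), and to 1 with DESeq2 and 1 by CDR3 nucleotides in Il15° against Il2° (6 of 352 and 3 of 304). The difference in mean CDR3 length turned to -0.0134 with each clonotype counted once and was 0.0234 to 0.0501 with 1 library left out. The differences in mean TRAJ number (-3.13 to -1.61) and inserted bases (-1.15 to -0.19) kept their direction and passed in all 15 alternatives. Counting as TRAV14 every CDR3 also found under another family gave mean shares of 6.45%, 7.12% and 7.95% in wt, Il2° and Il15° mice. The cause of these differences between settings was not tested.

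Replicate numbers are shared between genotypes, and whether they pair the mice was not settled. Libraries with the same number correlated by 0.01 (Il2° against wt), 0.05 (Il15° against wt) and 0.09 (Il15° against Il2°) on average. Those with different numbers correlated by -0.003, -0.02 and -0.03. With 4 mice per genotype, such low correlations cannot exclude a pairing. With the replicate block, the family changed by -0.10, 0.28 and 0.39, only the last passing (adjusted p = 0.0164), and counts of TRAV14 calls were the same as without it. Over all features, calls in Il15° against Il2° went from 2 to 4 of 19 families, from 4 to 5 of 45 genes and from 2 to 9 of 429 pairs. The filter on low counts left 25 to 34 of 1582 TRAV14 clonotypes per comparison, and without it 1142 to 1265 were tested.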
